A study of Mus musculus with 41 samples.

Results

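The genes described here are 40 genes of mouse chromosome 13 that flank Plk2 and whose human counterparts lie on the long arm of chromosome 5, in the segment 5q11-q13. They were listed by symbol and position, a rule that uses no measured value, but earlier results of these data were known when the list was made. The list is a selection and does not hold every gene of the interval. All 40 were found among the 47480 gene symbols of the expression table. From the first member, Gtf2h2, to the last, Parp8, they span 16.6 Mb (chromosome 13, 100460218 to 117025537, GRCm38/mm10), an interval that holds 240 annotated genes, 77 of them protein-coding. Of the 40 members, 37 had a mean value of at least 10 over all tumors and were tested. Rab3c, Gapt and Ankrd55 fell below that limit.

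Expression was measured by RNA-seq of 41 untreated mouse mammary tumors on the Balb/c background, with 1 library per tumor. Group PLK2null held 28 tumors of the genotype Plk2-/-; p53-/-, and group p53null held 13 tumors of the genotype p53-/-, so loss of p53 was common to both. PLK2null tumors had grown in normal Balb/c hosts that received mammary epithelium lacking both genes, and pieces could later be passed from host to host, so a library can also hold RNA of host stroma. The labels do not say which tumors descend from the same primary tumor. All 41 were counted as separate samples, so p-values measure only the spread among these samples and can be too small if tumors are related. The Plk2-/- line had been backcrossed to Balb/c, and chromosome 13 sequence next to the deleted gene that still came from the donor strain cannot be told apart from the deletion itself. In the same way, all 13 p53null titles and no PLK2null title carry the name of 1 numbered series, so that the origin of the library and the genotype cannot be told apart.

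Plk2 is a serum-inducible polo-like kinase that acts at the centrosome in centriole duplication. Its human gene lies on 5q, an arm that is often lost in basal-like breast cancer together with neighbors such as RAD17, a loader of the DNA damage checkpoint clamp, PIK3R1, the regulatory subunit that restrains phosphoinositide 3-kinase, and MAP3K1, a kinase upstream of JNK. When an arm is lost, many neighboring genes fall together in the same tumor, whereas deletion of a single gene is known to leave the copy number of its neighbors as it was.

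Values are upper-quartile normalized counts, with 1000 units set as the upper quartile of each tumor's values above 0, and differences are PLK2null minus p53null on the log2(value + 1) scale. The libraries held 29409609 to 70868124 fragments as read back from the steps between low values, and 3 reads amounted to 1.16 to 2.45 units. Plk2 itself ranged from 36.6 to 553 (median 284) in PLK2null tumors and from 186 to 8028 (median 3402) in p53null tumors, a difference of -3.39 (SE 0.38, adjusted p = 1.3e-09). The ranges overlapped through 1 tumor, p53null-7435, which had the lowest Plk2 value of its group and lay within the PLK2null range. PLK2null-732, PLK2null-733 and PLK2null-743 stood apart from the other 25 PLK2null tumors: the summed level of 5 epithelial genes (Epcam, Krt8, Krt18, Cdh1, Krt14) was 40.1 to 259 in them against 13046 to 109942 in the others, with Krt14 at 0 in at least 1 tumor, and that of 5 endothelial genes was 157065 to 175265 against 2261 to 72933. In the 13 p53null tumors the epithelial sum was 33746 to 273640, lowest in p53null-T11. Epcam (81.4) and Cdh1 (61.9) were low in p53null-T11, beside 9.60 to 87.4 and 7.19 to 35.8 in those 3 PLK2null tumors. Krt8 was 11057 in p53null-T11. The next-lowest p53null values of Epcam and Cdh1 were 8552 and 5114. All tumors are bulk samples, in which fewer cells of a type and less RNA per cell cannot be told apart.

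RefSeq promoter windows on GRCm38.p6, 250 bases before to 50 bases after each start, were found for 36 of the 40 members. Printed here, 5′ to 3′ in the direction of transcription, are those of Srek1, Rad17 and Ercc8. Srek1 (chr13:103774559-103774858, minus strand) is the member whose genotype groups did not overlap. Rad17 (chr13:100651012-100651311, minus strand), a gene the study names, shares 219 bases of its window with that of Taf9 on the opposite strand. Ercc8 (chr13:108158488-108158787, plus strand), the single member that fell, shares 212 bases with the window of Ndufaf2. Capitals mark matches, on either strand, to the ETS motif CCGGAAG, the CCAAT box CCAAT and the GC box GGGCGG.
Srek1: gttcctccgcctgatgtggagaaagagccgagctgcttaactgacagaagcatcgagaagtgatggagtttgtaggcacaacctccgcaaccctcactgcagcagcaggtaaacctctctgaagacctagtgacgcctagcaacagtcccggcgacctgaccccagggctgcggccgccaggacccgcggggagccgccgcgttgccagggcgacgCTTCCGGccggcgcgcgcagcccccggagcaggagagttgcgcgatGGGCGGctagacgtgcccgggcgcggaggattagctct
Rad17: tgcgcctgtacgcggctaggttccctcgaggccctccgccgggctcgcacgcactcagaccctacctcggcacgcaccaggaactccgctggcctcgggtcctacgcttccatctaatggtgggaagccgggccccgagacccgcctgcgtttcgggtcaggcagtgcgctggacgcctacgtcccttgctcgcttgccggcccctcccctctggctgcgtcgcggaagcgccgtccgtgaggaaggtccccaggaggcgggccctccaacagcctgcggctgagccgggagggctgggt
Ercc8: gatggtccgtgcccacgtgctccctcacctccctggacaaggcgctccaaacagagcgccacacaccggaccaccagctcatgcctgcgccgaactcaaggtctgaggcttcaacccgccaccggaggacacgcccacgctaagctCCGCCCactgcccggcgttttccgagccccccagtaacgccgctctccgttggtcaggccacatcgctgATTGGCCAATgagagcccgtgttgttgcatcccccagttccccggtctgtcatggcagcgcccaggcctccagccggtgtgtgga
The Srek1 window held 1 ETS match, 34 bases before the start, and 1 GC box, while no match to the 3 motifs was found in the 300 bases of the Rad17 window. The Ercc8 window held a pair of CCAAT boxes on opposite strands that abut each other, 35 and 30 bases before the start, and 1 GC box 104 bases before it. Over the 32851 windows of the genome 8.86% held the ETS motif, 37.4% the CCAAT box and 35.7% the GC box, against 5, 17 and 24 of the 36 windows of members. Members were counted by 1 window each, whereas the 32851 windows belong to 27025 genes, some with several windows. These shares are thus not strictly alike, and no enrichment was tested. The largest share among members was that of the GC box, at 66.7%. A match describes these letters and does not show binding.

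The genotype comparison asked how the genes around Plk2 were expressed when Plk2 itself was deleted. Of 37 tested members, 12 were higher in PLK2null tumors, 1 was lower and 24 did not pass the test (limma, Benjamini-Hochberg adjusted p below 0.05 over all 17208 genes tested). The members that rose were Gtf2h2, Rad17, Taf9, Ccdc125, Mast4, Srek1, Adamts6, Zswim6, Pde4d, Mier3, Slc38a9 and Parp8, and Ercc8 fell. In all, 35.1% of the tested members were called, close to the 39.5% called over all genes tested, of which 24.3% were higher and 15.3% lower. The median difference over members was 0.19, against 0.10 over all genes and 0.14 over the 532 tested genes of chromosome 13 outside the interval. Scaling moved these values: rescaling by TMM factors shifted the median of all genes by -0.12 and left 8 members higher and 3 lower, and quantile normalization shifted it by -0.10 and left 9 higher and 2 lower. The share of calls that were higher was 61.4% over all genes as deposited, 48.4% after TMM rescaling and 50.7% after quantile normalization, and for members it was 92.3%, 72.7% and 81.8%. Relative to the median of all genes, the median of the members stayed 0.10 higher as deposited, 0.09 higher after TMM rescaling and 0.14 higher after quantile normalization. Some markers of cell types and tissues also differed between genotypes, and others did not. All 4 skeletal muscle markers were lower in PLK2null tumors, their sum running from 17.1 to 2649 in PLK2null and from 21.6 to 34313 in p53null tumors, with Acta1 and Myh4 at 0 in at least 1 tumor. Of 4 adipocyte markers 1 was lower, a share below the 39.5% called over all genes tested. The adipocyte sums were 225 to 124691 and 383 to 3376, with Adipoq, Plin1 and Cidec at 0 in at least 1 tumor. Of 5 epithelial markers 1 was lower, and none of 5 endothelial, 5 fibroblast or 5 T cell markers was called. The part of these markers in the members' differences was not tested.

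**Figure D1:**
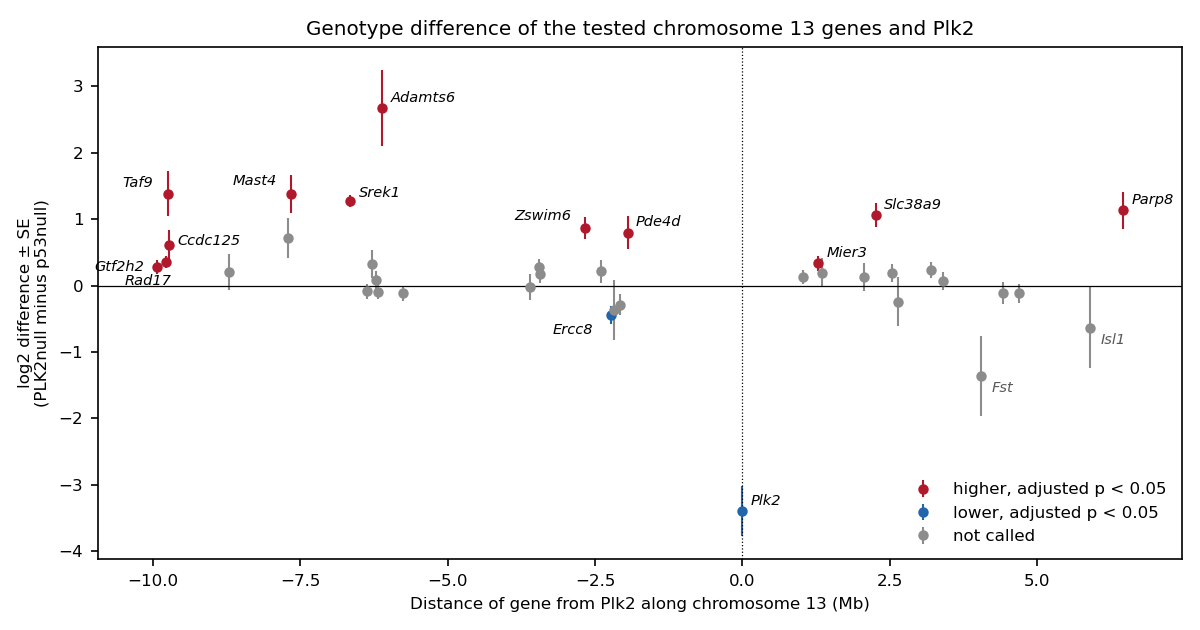
Log2 difference (PLK2null minus p53null, limma) of the 37 tested members and of Plk2, with standard errors, against the distance of each gene from Plk2 in Mb. Red points are the 12 members that were higher, blue points Ercc8 and Plk2, which were lower, and gray points the 24 that did not pass the test. Plk2 lies far below its neighbors, and of the 13 tested members within 3 Mb of it 4 are higher and 1 is lower, with a median difference of 0.18. Over all genes tested 39.5% were called.

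All 4 members that act in DNA repair or in the start of transcription passed the test, 3 higher and 1 lower, where 39.5% of all genes tested were called. After TMM rescaling 1 of these members was higher and 1 lower, and after quantile normalization 2 were higher and 1 lower. Rad17 (chromosome 13, 100617164 to 100651051, minus strand) ranged from 569 to 1123 (median 867) in PLK2null tumors and from 496 to 888 (median 697) in p53null tumors. The difference was 0.35 (SE 0.092, adjusted p = 0.0022), and 13 of the 28 PLK2null tumors lay above every p53null tumor, while the groups overlapped. After TMM rescaling the difference was 0.23 and no longer passed the test (adjusted p = 0.07). Gtf2h2, a subunit of the repair and transcription factor TFIIH, ranged from 385 to 718 (median 558) in PLK2null tumors and from 293 to 737 (median 454) in p53null tumors. It differed by 0.28 (SE 0.10, adjusted p = 0.025), with overlapping groups, and this call was lost after TMM rescaling (0.16, adjusted p = 0.23), after quantile normalization (0.23, adjusted p = 0.088), without p53null-10152 (0.23, adjusted p = 0.065) and without p53null-10155 (0.23, adjusted p = 0.061). Rad17, Gtf2h2 and Taf9 lie within 0.2 Mb of each other and co-varied over the tumors, as given with the neighbor correlations.

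Taf9, which encodes a subunit of the general factor TFIID, showed the widest spread of this group, from 93.6 to 957 (median 387) in PLK2null tumors and from 51.6 to 610.1 (median 118) in p53null tumors, a difference of 1.38 (SE 0.34, adjusted p = 0.001). The groups overlapped, with the highest p53null value in p53null-T11. The annotation gives Taf9 2120 exon bases, 1564 of which (73.8%) also belong to Ak6 on the same strand, and 1 of the RefSeq windows of Taf9 is the window of Ak6, so reads of the pair could be split between them. Ak6, an adenylate kinase gene, ranged from 1715 to 3148 (median 2259.5) in PLK2null tumors and from 1847 to 4769 (median 2539) in p53null tumors and did not pass the test (-0.21, SE 0.11, adjusted p = 0.13). The sum of Taf9 and Ak6 had a mean log2 value of 11.42 ± 0.26 (SD, n = 28) in PLK2null tumors. In p53null tumors it was 11.46 ± 0.44 (SD, n = 13), a difference of -0.044. The median of the sum was 2828 in PLK2null and 2691 in p53null tumors. Ak6 made up most of the sum, so a rise of Taf9 alone would move it little beside these SDs. The sum therefore cannot show whether Taf9 rose, and a split of reads was not tested.

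Ercc8, also known as CSA, serves transcription-coupled repair. It ranged from 147 to 350.3 (median 223) in PLK2null tumors and from 172 to 415 (median 304) in p53null tumors, and the difference was -0.44 (SE 0.13, adjusted p = 0.0052). Of the 13 p53null tumors 12 lay above the PLK2null median, although the ranges overlapped. Its divergent neighbor Ndufaf2, an assembly factor of respiratory complex I whose start lies 113 bases away, ranged from 207 to 969 (median 528) and from 247 to 594 (median 401) in the same order and did not pass the test (0.21, SE 0.17, adjusted p = 0.34).

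Among RNA-binding and ribosome-related members, Srek1, a splicing regulator with serine and arginine repeats (chromosome 13, 103739348 to 103774608, minus strand), showed the clearest separation of all members. Srek1 ranged from 1779 to 3416 (median 2709) in PLK2null tumors and from 685 to 1605 (median 1086) in p53null tumors. All 28 PLK2null tumors lay above all 13 p53null tumors, and the difference was 1.27 (SE 0.092, adjusted p = 1.4e-14), 95% interval 1.08 to 1.45. It was the 1 member whose groups did not overlap, where 1.35% of all genes tested (232 of 17208) did not overlap. Over every alternative that left out a tumor it stayed between 1.21 and 1.31. The other 5 of this group, Ppwd1, Cwc27, Dimt1, Dhx29 and Pelo, did not pass the test, with differences from -0.12 for Pelo, a ribosome rescue factor, to 0.28 for Dimt1, an rRNA methyltransferase (adjusted p = 0.075). Dimt1 shares 1229 exon bases with Kif2a on the opposite strand, and counting without strand cannot tell their reads apart there.

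**Figure D2:**
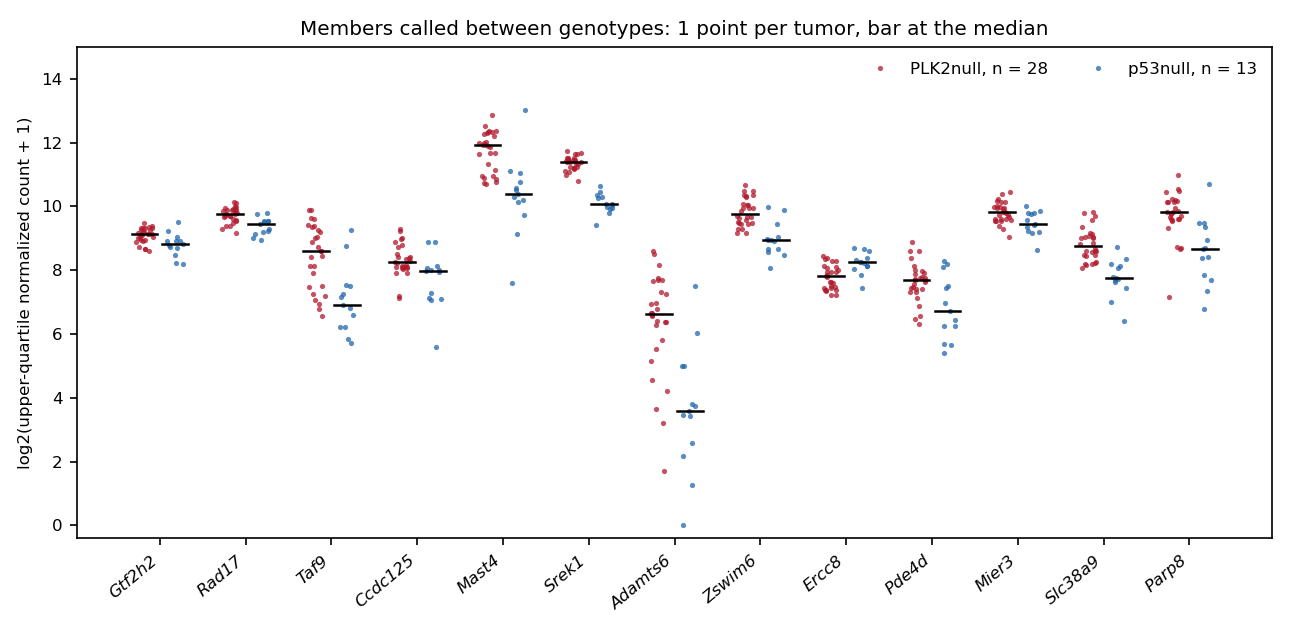
Log2(upper-quartile normalized count + 1) of the 13 members called between genotypes, in chromosome order, with 1 point per tumor and a bar at the median of each group (28 PLK2null in red, 13 p53null in blue). The groups are apart for Srek1 and overlap for the other 12.

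Of the 8 signalling members tested, 2 rose and 6 did not pass the test, a share called below the 39.5% of all genes tested. Mast4, a microtubule-associated serine/threonine kinase gene of 0.6 Mb, ranged from 1674 to 7426 (median 3858) in PLK2null tumors and from 194 to 8276 (median 1348) in p53null tumors, with a difference of 1.38 (SE 0.28, adjusted p = 0.00013). In p53null, 9 of 13 tumors lay below every PLK2null tumor, but p53null-T11 had the highest value of all 41. Pde4d, a phosphodiesterase that degrades cyclic AMP, ranged from 79.1 to 473 (median 206) in PLK2null tumors and from 41.5 to 312 (median 105) in p53null tumors. The difference was 0.79 (SE 0.25, adjusted p = 0.01), with overlapping groups, and after quantile normalization it was 0.61 (adjusted p = 0.058).

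Pik3r1 and Map3k1 did not pass the test. Pik3r1 ranged from 2202 to 11049 (median 4339.6) in PLK2null tumors and from 1346 to 19890.5 (median 3987) in p53null tumors, a difference of 0.20 (SE 0.26, adjusted p = 0.57) with a 95% interval of -0.33 to 0.74. Its extremes were both p53null tumors, p53null-T11 at the low end and p53null-10152 at the high end. Map3k1 ranged from 1074 to 4961 (median 2116) in PLK2null tumors and from 702 to 5342 (median 1968) in p53null tumors, a difference of 0.19 (SE 0.22, adjusted p = 0.51) with a 95% interval of -0.24 to 0.63. Either interval spans 0.

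The remaining signalling members also missed the threshold. Fst, the secreted activin antagonist follistatin, ranged from 7.19 to 4590.4 (median 460.2) in PLK2null tumors and from 94.3 to 7859 (median 1228) in p53null tumors (-1.36, SE 0.60, adjusted p = 0.068). Its lowest PLK2null values were those of PLK2null-732, PLK2null-733 and PLK2null-743, which deviated by -6.20 to -3.18 from the median of all tumors, against -1.37 to 2.93 in the other 25. Fst passed the test after TMM rescaling (-1.48, adjusted p = 0.043) and quantile normalization (-1.43, adjusted p = 0.043). Cd180, a Toll-like receptor homolog of B cells and macrophages that overlaps Mast4 by 182 exon bases, ranged from 34.7 to 377 (median 150.3) in PLK2null tumors and from 34.4 to 261 (median 75.9) in p53null tumors (0.71, SE 0.30, adjusted p = 0.054). Of 5 macrophage markers 1 was higher, where 24.3% of all genes tested were higher, with sums of 3352 to 24542 and 4946 to 19576. The part of these markers in the Cd180 values was not tested. Il6st, the gp130 receptor chain shared by interleukin-6 family cytokines, differed by 0.13 (SE 0.21, adjusted p = 0.65), and Arl15, a small GTPase gene, by 0.064 (SE 0.14, adjusted p = 0.74). Arl15 turned to -0.058 after TMM rescaling and to -0.0072 after quantile normalization, and without p53null-2225L Il6st turned to -0.019 and Arl15 to -0.025.

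Of the 5 chromatin and transcription members 3 rose and 2 did not pass the test, where 39.5% of all genes tested were called. After TMM rescaling 2 of the 5 were higher, and after quantile normalization also 2. Zswim6, a zinc finger SWIM gene annotated in GENCODE vM21 as a processed transcript, ranged from 570.2 to 1635 (median 874) in PLK2null tumors and from 267 to 1014 (median 493) in p53null tumors, a difference of 0.86 (SE 0.16, adjusted p = 2.8e-05). In each group 10 tumors lay outside the range of the other group. Parp8, a member of the ADP-ribosyltransferase family and the last gene of the interval, ranged from 141 to 2042 (median 900.3) in PLK2null tumors and from 108 to 1665 (median 403) in p53null tumors, a difference of 1.13 (SE 0.28, adjusted p = 0.0012). Only 1 p53null tumor, p53null-T11, lay above the PLK2null median. Mier3, which encodes a partner of histone deacetylases, ranged from 521 to 1415 (median 904) in PLK2null tumors and from 400.2 to 1024 (median 700.3) in p53null tumors, a difference of 0.33 (SE 0.12, adjusted p = 0.026). That call was lost after TMM rescaling (0.21, adjusted p = 0.16), after quantile normalization (0.26, adjusted p = 0.08) and without p53null-2225L (0.26, adjusted p = 0.072). Gpbp1 did not pass the test (0.13). Isl1, a homeobox factor of motor neurons and pancreatic islets, was at or below 3 reads in 23 PLK2null and 10 p53null tumors, and it passed the filter mainly through p53null-2331L at 386, so its difference of -0.63 (SE 0.61, adjusted p = 0.43) rests on few tumors.

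Of the 6 organelle and metabolism members 1 rose (16.7% called, against 39.5% over all genes tested). Slc38a9, a lysosomal amino acid transporter that signals arginine to mTORC1, ranged from 269 to 904 (median 432) in PLK2null tumors and from 84.8 to 428 (median 214) in p53null tumors, a difference of 1.06 (SE 0.18, adjusted p = 9.6e-06). No p53null tumor reached the PLK2null median, and 14 PLK2null tumors lay above every p53null tumor. Ndufaf2, Mocs2, Nln, Elovl7 and Gpx8 did not pass the test. Elovl7, an elongase of very long chain fatty acids, ranged from 55.3 to 1169 (median 528) in PLK2null tumors and from 16.9 to 2371 (median 903) in p53null tumors (-0.37, SE 0.45, adjusted p = 0.55), and its low values fell in PLK2null-732, PLK2null-733 and PLK2null-743 (-3.55 to -2.41 from the median of all tumors), in PLK2null-7763 (-2.32) and in p53null-T11 (-5.21). p53null-T11 also had the lowest epithelial sum of its group, 33746. Gpx8, a peroxidase of the endoplasmic reticulum, ranged from 119.7 to 1727 (median 371) and from 181 to 4506 (median 436) (-0.25, SE 0.37, adjusted p = 0.63), and its difference turned to 0.012 without p53null-T11, its highest tumor.

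None of the 6 members of transport, division and protein handling passed the test (0 higher, 0 lower), where 39.5% of all genes tested were called. Ipo11, an importin, ranged from 567 to 3148 (median 1085) in PLK2null tumors and from 872 to 1488 (median 1154) in p53null tumors (-0.022, SE 0.20, adjusted p = 0.94), and the antisense gene Gm28989, which shares 240 exon bases with it, rose by 2.78 (SE 0.24, adjusted p = 1.1e-12) at low values of 7.71 to 28.8 against 0 to 8.04. Kif2a, a microtubule-depolymerizing kinesin of the spindle, differed by 0.17 (SE 0.13, adjusted p = 0.33) and Depdc1b by -0.29 (SE 0.16, adjusted p = 0.15). Of 5 proliferation markers 1 was higher in PLK2null tumors, where 24.3% of all genes tested were higher, with sums of 13077 to 62076 against 7862 to 25138. Depdc1b passed the test after TMM rescaling (-0.41, adjusted p = 0.043). Snx18, Sgtb and Trim23 differed by 0.23, 0.33 and 0.082, and Trim23 turned to -0.04 after TMM rescaling. Without p53null-T11, the p53null tumor with the highest values of Kif2a, Sgtb and Snx18, these 3 passed the test with differences of 0.28, 0.48 and 0.30 (adjusted p = 0.047, 0.045 and 0.047).

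Of the members outside these groups, Adamts6, a secreted metalloprotease gene, had the largest difference. Adamts6 ranged from 2.26 to 384 (median 97.7) in PLK2null tumors and from 0 to 179 (median 11.03) in p53null tumors, a difference of 2.67 (SE 0.57, adjusted p = 0.00023). One p53null tumor (1 of 13), p53null-T11, lay above the PLK2null median, and 2 p53null tumors were at or below 3 reads, so the difference depends on the added 1. Ccdc125 ranged from 138 to 629.6 (median 304) in PLK2null tumors and from 46.9 to 477 (median 253) in p53null tumors (0.61, SE 0.22, adjusted p = 0.021), with overlapping groups. Its call was lost without p53null-T11, its lowest tumor (0.44, adjusted p = 0.061), and after TMM rescaling (0.49, adjusted p = 0.055). The 3 untested members were near the limit of detection: Rab3c was at or below 3 reads in 21 PLK2null and 11 p53null tumors, Ankrd55 in 9 and 2, and Gapt, a B cell and myeloid adaptor gene 0.042 Mb from Plk2, in 1 and 0, with a range of 1.497 to 27.8 (median 8.17) against 2.71 to 20.3 (median 7.85).

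Per kilobase of exon, the highest median levels over the 41 tumors were those of Gpbp1 (755), Pik3r1 (417) and Gpx8 (365), and Adamts6 (9.92) and Pde4d (14.9) were low among the members that were called. On this scale the members that rose ran from 9.92 for Adamts6 to 258 for Srek1.

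By distance, 13 tested members lay within 3 Mb of Plk2, of which 4 were higher and 1 lower (median difference 0.18). Of 10 members at 3 to 6 Mb none was called (median difference -0.068), and of 14 members beyond 6 Mb 8 were higher (median difference 0.48). Each of these sets is small, and no trend with distance was tested. The 28 other tested genes inside the interval had 5 higher and 3 lower (28.6% called, median difference 0.011). The share called was 35.1% among members and 39.5% over all genes tested. Of the 22 other protein-coding genes of the interval 1 was higher and 1 lower (9.09% called, median difference -0.013). These were Itga2, the collagen-binding integrin alpha 2, which ranged from 95.8 to 786 in PLK2null and from 12.7 to 296 in p53null tumors (1.54, SE 0.34, adjusted p = 0.00035), and Ndufs4, a subunit of complex I, which ranged from 548 to 1643 and from 1256 to 2398 (-0.89, SE 0.15, adjusted p = 7.4e-06).

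A further 42 genes of chromosome 13 whose human counterparts lie on 5q, outside the interval on the side of Gtf2h2, were all tested. As deposited, 16 were higher and 5 lower (50% called, against 39.5% over all genes tested, median difference 0.20). After TMM rescaling 9 were higher and 6 lower (35.7%, against 40% over all genes). After quantile normalization 10 were higher and 5 lower (35.7%, against 39.2%). Mtx3, a mitochondrial import gene (1.65, SE 0.12, adjusted p = 2.4e-14), Polk, a translesion DNA polymerase (0.93, SE 0.14, adjusted p = 1.2e-06), and Rasa1, a Ras GTPase-activating protein (0.69, SE 0.15, adjusted p = 0.00019), were among those that rose. Btf3, a nascent-chain factor, fell by 0.85 on the log2 scale (SE 0.09, adjusted p = 4.4e-10). No test of this list against the members was run.

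Co-varying runs were sought in single tumors. A run was defined as 5 or more neighboring tested members that all deviated by at least 0.5 in the same direction from their median over the 41 tumors. One tumor had such runs, p53null-2225L, and none of the PLK2null tumors did. The first run reached from Rad17 to Trim23 (10 members over 3.59 Mb), with deviations of -3.72 to -0.52 and a median of -1.06, its deepest point at Mast4. The second reached from Pde4d across the Plk2 position to Dhx29 (7 members over 4.52 Mb), with deviations of -2.05 to -0.79 and a median of -1.396, its deepest point at Slc38a9. Between the runs, Adamts6 (-2.85), Elovl7 (-2.15) and Zswim6 (-1.52) were also low, Ppwd1, Cwc27, Ipo11, Dimt1, Kif2a and Ndufaf2 deviated by -0.46 to -0.12, and Ercc8 (0.18) and Depdc1b (0.87) lay above their medians. Beyond the second run, Parp8 (-2.28), Arl15 (-1.12), Snx18 (-0.56), Gpx8 (-0.42) and Mocs2 (-0.19) were low, and Fst deviated by 1.17. Plk2 itself is not among the members.

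In p53null-2225L 32 of the 37 tested members lay below their medians, with a median of -0.79, the lowest of the 41 tumors. The low values were not limited to the interval. The other 532 tested genes of chromosome 13 had a median of -0.55 in this tumor against -0.11 over all genes, and of 584 running medians of 15 neighboring genes along the chromosome 577 were below 0 (98.8%), against 85.8% in the next tumor, PLK2null-1975. Among the 19 autosomes, chromosome 13 had the second-lowest median in p53null-2225L. Without this tumor the median difference over members was 0.11 in place of 0.19, with 11 members higher and 1 lower. Windows of 37 neighboring tested genes on the autosomes, chromosome 13 included, held a median of 8 tumors with such a run. Of 15341 windows 99.7% held at least 1, against the single tumor found here, although the members are a selection of the tested genes of their interval.

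**Figure D3:**
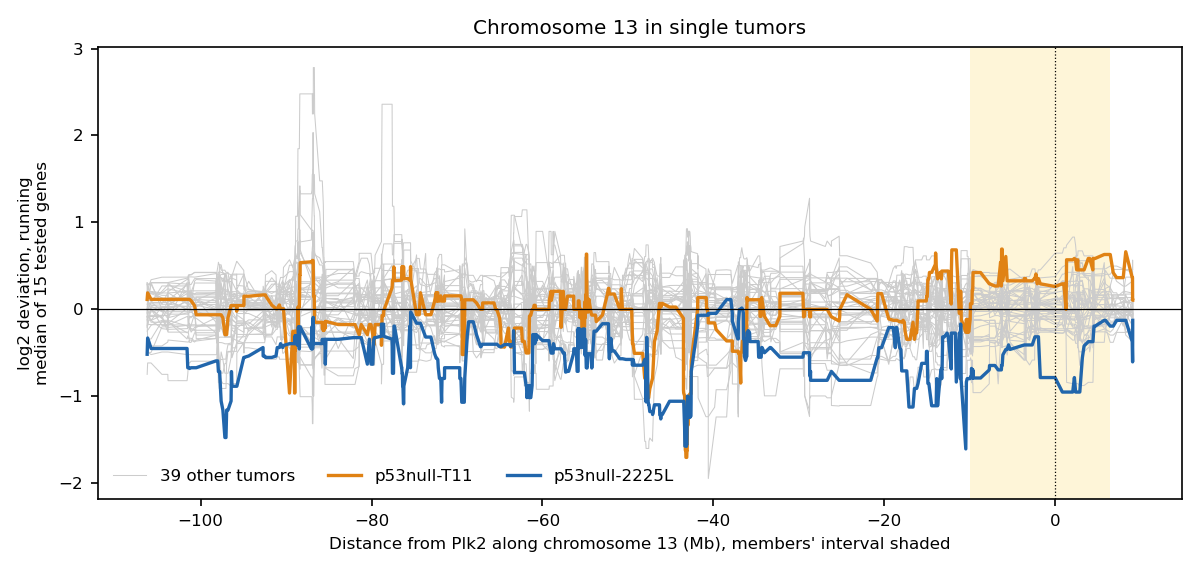
Running median, over 15 neighboring tested genes, of the log2 deviation from the median over 41 tumors, against the distance from Plk2 along chromosome 13 in Mb, with the interval of the members shaded. p53null-2225L (blue) is below 0 in 98.8% of the windows, p53null-T11 (orange) is above 0 over most of the shaded interval, and 39 other tumors are in gray.

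The opposite was seen in p53null-T11, where 27 tested members were above and 10 below their medians. Their median was 0.48, the highest of the 41 tumors, while the other tested genes of chromosome 13 had a median of -0.07 and all genes of -0.19. The gap of 0.55 between members and the rest of the chromosome was the largest of any tumor. It was uneven among genes: Gpx8 (3.55), Mast4 (1.69), Sgtb (1.65), Kif2a (1.35) and Il6st (1.32) were high, and Elovl7 (-5.21), Ccdc125 (-2.52), Pik3r1 (-1.64) and Map3k1 (-1.58) were low, and no 5 neighbors moved together by 0.5.

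Among the PLK2null tumors the medians over members ran from -0.34 in PLK2null-1975 to 0.46 in PLK2null-1988, and 7 of 28 were below 0. In the p53null tumors they ran from -0.79 to 0.48, and 10 of 13 were below 0. Medians over all genes ran from -0.11 (PLK2null-1977) to 0.21 (PLK2null-1971) in PLK2null tumors. In p53null tumors they ran from -0.25 (p53null-10152) to 0.10 (p53null-7435), and most were also below 0. Deviations are from a median over 41 tumors, 28 of them PLK2null, so counts below 0 are not particular to the members. In many tumors the members lay close to the rest of the chromosome: PLK2null-1975 had -0.20 over the other genes of chromosome 13, PLK2null-1988 had 0.25, and PLK2null-1963 had 0.36 over members and 0.33 over the rest. PLK2null-732, PLK2null-733 and PLK2null-743 had medians over members near 0 (-0.075, 0.10 and -0.0096) and stood out by single genes. In those 3 tumors Ipo11 deviated by 1.48 to 1.52, Pde4d by 1.11 to 1.396, Slc38a9 by 1.11 to 1.35 and Pelo by 1.04 to 1.14, while Elovl7, Fst and Ndufaf2 (-1.25 to -0.93) were low. Pelo shares 46.2% of its exon bases with Gm49395 on the same strand, and Ndufaf2 65.6% with B230220B15Rik on the opposite strand. The part of this overlap in their values was not tested. Without these 3 tumors 14 members were higher and 1 lower, with Cd180 (0.78, adjusted p = 0.041) and Dimt1 (0.36, adjusted p = 0.012) added.

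**Figure D4:**
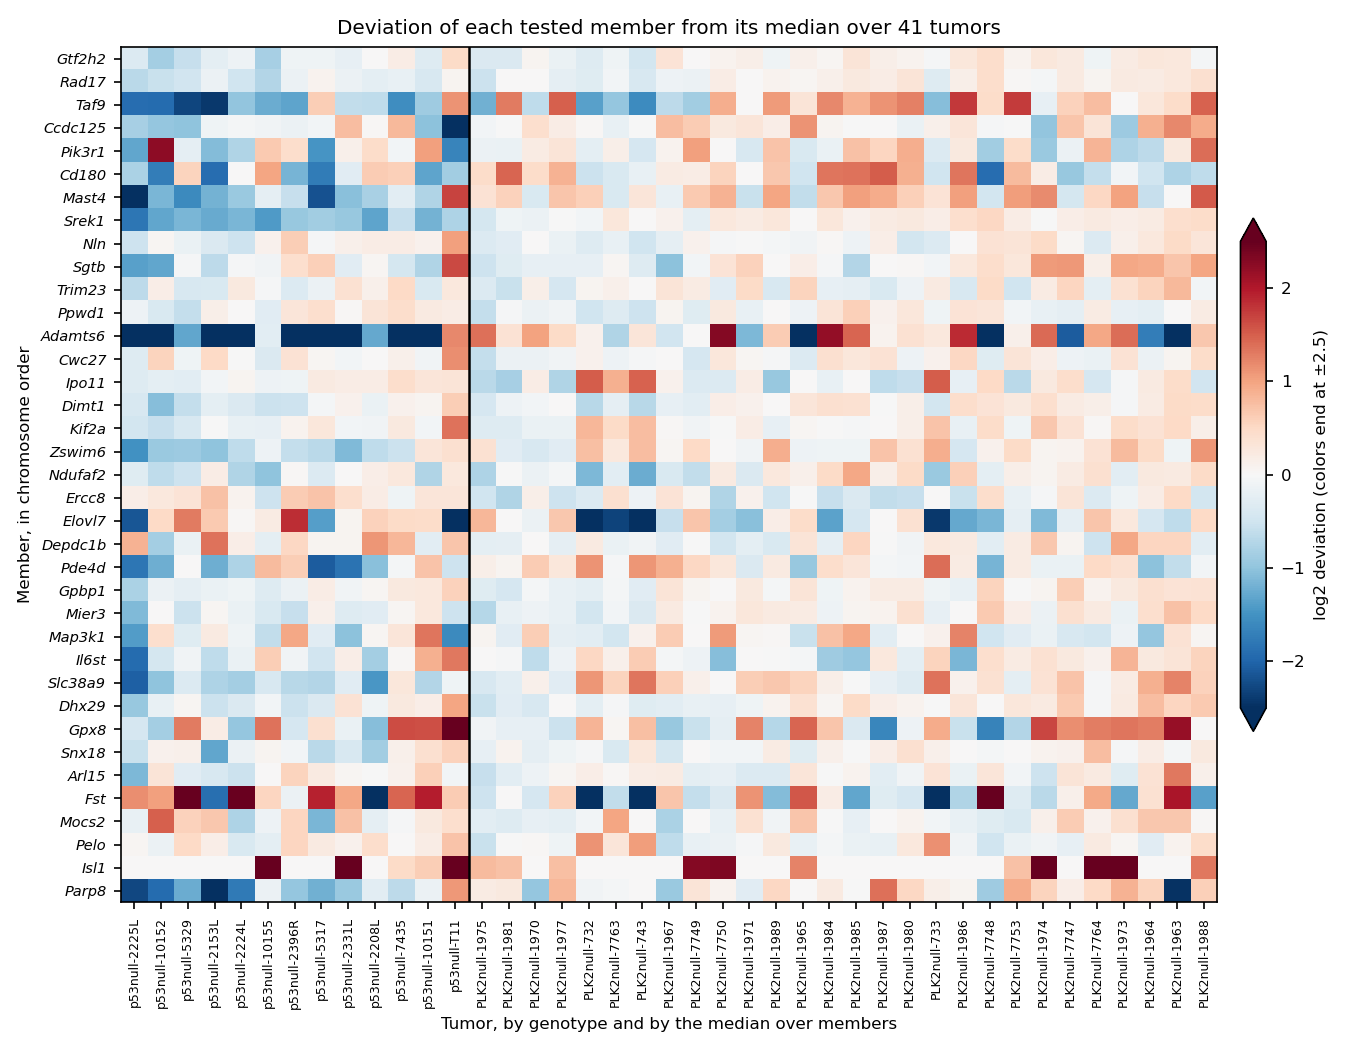
Log2 deviation of each of the 37 tested members (rows, in chromosome order) from its median over 41 tumors, by tumor (columns, p53null left of the line and PLK2null right of it, each ordered by the median over members). p53null-2225L, the first column, is blue in 32 of 37 rows, and p53null-T11, the last p53null column, is red in 27.

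**Figure D5:**
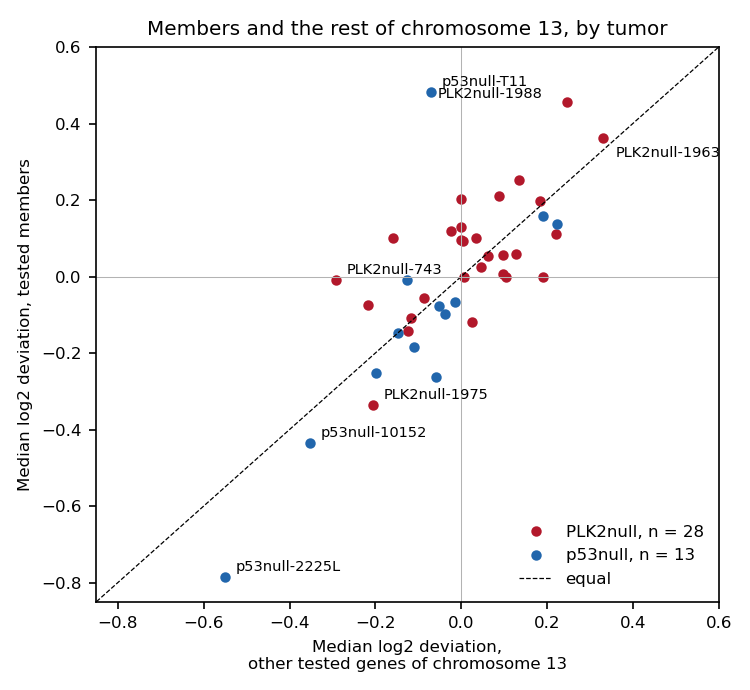
Median log2 deviation of the 37 tested members against that of the other 532 tested genes of chromosome 13, with 1 point per tumor (28 PLK2null in red, 13 p53null in blue) and a dashed line where they are equal. Most tumors lie near the line, p53null-2225L is lowest on both axes (-0.79 and -0.55), and p53null-T11 is farthest above the line.

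Neighboring members were also compared by how alike their values were across tumors. Over the 36 pairs of neighboring tested members the median Pearson correlation of log2 values over 41 tumors was 0.20 (0.14 within PLK2null and 0.26 within p53null), from -0.27 to 0.76, and 6 pairs (16.7%) exceeded 0.5. Over 16006 neighboring pairs on the autosomes the median was 0.29 and 27.1% exceeded 0.5. Those autosome pairs are directly adjacent tested genes. Member pairs can skip some of the 28 other tested genes of the interval, with starts up to 2.98 Mb apart (Pde4d with Gpbp1). The sets are thus not alike in spacing, and the lower median of the members cannot be read as weaker likeness. These values describe tumors that share library scaling and may share an origin. Among the closest pairs were Gtf2h2 with Rad17 (0.76, and 0.67 and 0.76 within PLK2null and p53null), Rad17 with Taf9 (0.76, 0.67 and 0.61), Gpbp1 with Mier3 (0.73, 0.82 and 0.57) and Nln with Sgtb (0.62, 0.67 and 0.68). Rad17 with Taf9 and Nln with Sgtb are divergent pairs with starts 282 and 127 bases apart, and the third such pair, Ndufaf2 with Ercc8, had a correlation of -0.19. Mast4 with Srek1 reached 0.67 over all tumors, 0.049 within PLK2null and 0.596 within p53null. Pairs could also run against each other: Map3k1 with Il6st had -0.27 over all tumors, -0.71 within PLK2null and 0.085 within p53null, and Ipo11 with Dimt1 had -0.18, -0.42 and 0.83.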

How the data were processed

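RNA-seq was performed on 41 mouse mammary tumors (28 PLK2null, 13 p53null, grouped by the labels; 1 library each). Per the labels, libraries were made from total RNA with the TruSeq mRNA kit and sequenced as paired ends. The authors aligned reads to mm10 with STAR 2.7.6a and quantified genes with Salmon 1.4.0 (SAMtools and Picard 2.22.4 are also named in the submitters' processing notes). The deposited values are a signal on a linear scale, upper-quartile normalized estimated counts whose upper quartile of nonzero values is 1000 in each tumor, and 51.5% of them are 0. Strandedness of the counting is not given in the sources used here. Between 77.9% and 80.5% of nonzero values per tumor lay within 0.1 read of a whole multiple of the smallest step, too few for a count model.

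Genes with a mean of at least 10 over the 41 tumors (17208) were log2(value + 1) transformed and compared between genotypes by limma (version 3.58.1, R 4.3.3), with Benjamini-Hochberg adjustment over all of them and a threshold of 0.05. The procedure was tested on simulated data. Positions are those of GENCODE vM21, which gave 1 position for 45114 symbols (95.0%), and promoter sequences are from RefSeq on GRCm38.p6. Descriptive values were computed with Python 3.11.15, pandas 2.3.3 and numpy 2.4.6. Alternatives were a pseudocount of 10, no filter, a mean of at least 100, an intensity trend, TMM rescaling, quantile normalization, sets of PLK2null tumors and each tumor left out. The rule for naming genes was to account for all 40 members, with full values for those that were called and for Rad17, Pik3r1 and Map3k1, and of other protein-coding genes inside the interval to name up to 5 that were called; Fst, Cd180, Elovl7, Gpx8, Ipo11, Gm28989 and the 5q genes outside the interval were named after their values were seen. The members and lists were chosen with earlier results of these data known. No test of the list as a whole was run. The B cell marker list is not reported here. Marveld2, Cenph, Cdk7 and Ccnb1 lie inside the interval and were left out of the list of further 5q genes. The closest pair of libraries, PLK2null-1984 and PLK2null-7750, differed by a median chi-square of 4.40 per gene, so none was taken as a duplicate. The next closest pairs were PLK2null-1986 with PLK2null-7750 (4.53), PLK2null-1985 with PLK2null-1986 (4.78) and PLK2null-1984 with PLK2null-1986 (4.81). PLK2null-732 with PLK2null-733 (4.85) came after them. Whether these tumors share an origin was not tested.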

Additional observations from a re-analysis of the deposited data

How the results depend on the processing

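As deposited, 12 members were higher and 1 was lower. A pseudocount of 10, no filter and an intensity trend changed no call of the 37 members, and a mean of at least 100 changed none of the 35 it kept. The lower count moved to 2 after quantile normalization and 3 after TMM rescaling, and to 0 with 4 higher when the 7 PLK2null tumors with 77xx numbers alone were compared with the 13 p53null tumors (fewer tumors; Gtf2h2, Rad17, Ccdc125, Mast4, Adamts6, Ercc8, Pde4d, Mier3 and Parp8 lost their call). With the 18 PLK2null tumors with 19xx numbers alone, 13 were higher and 1 lower, with Ccdc125 lost (adjusted p = 0.055). Leaving out each tumor in turn gave 11 to 15 members higher, 1 to 2 lower (2 without PLK2null-1963, PLK2null-7748, p53null-10152, p53null-2153L or p53null-2208L), a median over members of 0.11 to 0.26 and Plk2 between -3.70 and -3.25. Members that were not called turned sign: Arl15 (-0.0072 after quantile normalization, -0.058 after TMM rescaling), Trim23 (-0.040 after TMM rescaling), and with 1 tumor left out Ipo11 (-0.078 to 0.014, including 0.01 without p53null-7435), Il6st (-0.019 to 0.25), Arl15 (-0.025 to 0.12) and Gpx8 (-0.37 to 0.012). Members not called that passed the test with 1 tumor left out were Cd180 (14 tumors), Fst (4), Dimt1 (3), and Depdc1b, Kif2a, Sgtb and Snx18 (1 each). Tumors with a run numbered 6 at a deviation of at least 0.3, 0 at 1, 5 for runs of 4 members and 3 when centered on the p53null median, where 1 was found with the settings used. The median correlation of neighbors stayed between 0.19 and 0.23. The cause of these moves was not tested. No paired analysis was possible because no replicate number was shared by the groups. Depth limits Rab3c, Ankrd55 and Isl1, which were near or below 3 reads in many tumors.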

Other observations

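In p53null-2225L the 3 autosomes with the lowest medians were chromosome 18 (-0.76), chromosome 13 (-0.55) and chromosome 11 (-0.41), and each of these carries a segment whose human counterpart is on 5q. Lists of 5q genes on chromosomes 18 and 11 were therefore drawn up, after these values were seen. On chromosome 18 the 46 tested 5q genes, among them Apc, a negative regulator of Wnt signaling, had a median of -0.48 in this tumor against -0.77 for the genes of the chromosome outside their span, and on chromosome 11 the 58 tested 5q genes, among them Rad50, a DNA repair gene, had -0.44 against -0.42. The 42 further 5q genes of chromosome 13 had -0.75. The 5q genes of chromosome 13 were the lowest of the 41 tumors in p53null-2225L, those of chromosome 18 second-lowest and those of chromosome 11 third-lowest (p53null-7435 at -0.50 and p53null-2153L at -0.82 were the lowest). On chromosome 18 the 5q genes were thus not lower than the rest of their chromosome in this tumor, and on chromosome 11 the medians differed by -0.027.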
